A study of Mus musculus with 12 samples.

Results

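Müller glia span the neural retina, and 9 of their best known transcripts were followed here through diet and retinal injury. The reactive genes were Gfap, Vim, Nes and Cd44. The homeostatic genes were Glul, Aqp4, Slc1a3, Kcnj10 and Sox9. The members were chosen by gene symbol, 4 as reactive and 5 as homeostatic, out of 21930 genes with deposited read counts. Earlier results of these data were known when they were chosen. Each symbol matched 1 row, and all 9 genes passed the filter on low counts in every comparison.

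Müller cells take up the glutamate that photoreceptors and inner neurons release, turn it into glutamine, and carry away the potassium and water that neuronal activity leaves behind. When the retina is injured they enlarge, fill with intermediate filaments and change their transcription, a response called reactive gliosis. A rise of GFAP is its classical sign, since resting Müller cells hold little of that protein. In severe gliosis the transport and glutamine genes can be lost, so the reactive and the homeostatic genes are often read side by side.

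RNA-seq had been performed on wild-type eye tissue in 4 groups of 3 libraries. Mice had either free access to food (ad libitum, AL) or alternate-day fasting (intermittent fasting, IF) for 12 weeks from an age of 8 weeks. They then received 1 intraperitoneal injection, which held NaIO3 at 25 mg/kg or PBS alone, and tissue was taken 7 days later. According to the methods, each diet went on after the injection up to the end. NaIO3 is an oxidant that injures the retinal pigment epithelium (RPE) first and the photoreceptors after it. The groups were AL + PBS, IF + PBS, AL + NaIO3 and IF + NaIO3, and according to the methods all mice were male C57BL/6J. NaIO3 injury is acute, which limits it as a model of a slow human disease. The labels number the libraries of a group 1 to 3 without naming the mouse behind each, so every p-value here measures the spread between libraries.

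The tissue was labelled as RPE, choroid and sclera, and the methods speak of eye cups, yet the libraries held neural retina throughout. The summed level of 10 rod genes was between 51900 and 61100 CPM (counts scaled to a common library size) in the PBS groups, and that of 14 inner retinal neuron genes between 2040 and 2280. All 10 rod genes and all 14 inner neuron genes had counts. Totals per library were between 26364665 and 43046950 counts. AL + NaIO3 replicate 3 stood apart from the other 11 libraries. Its rod genes summed to 19900 CPM against 39000 to 66900 in the others, its 6 melanocyte genes to 2020 CPM against 132 to 335, and its 8 genes of choroid and sclera stroma to 1430 CPM against 82.1 to 242. Tests of the members are therefore given without it as well, where its absence altered a call or moved a value that the text relies on. In bulk tissue, fewer cells of a type and less RNA per cell cannot be told apart.

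Levels of different genes were compared per length, as FPKM, which the authors calculated by dividing fragments by length and depth. In AL + PBS, Glul, the glutamine synthetase of these cells, was far above the others at 782 ± 44.8 FPKM (SD, n = 3). Vim followed at 47.5 ± 4.21, then Slc1a3 at 36.6 ± 3.48 and Aqp4 at 32.8 ± 2.52. Kcnj10 at 9.85 ± 0.971 and Sox9 at 7.58 ± 0.897 came next, and Gfap at 5.30 ± 1.64, Cd44 at 2.56 ± 0.862 and Nes at 1.10 ± 0.0122 were the 3 lowest. The libraries of Slc1a3 and Aqp4 overlapped in this order, as did those of Sox9 and Gfap, and the other neighbours did not. In AL + NaIO3 the mean of Gfap was 58.4 ± 44.7 FPKM, beside Slc1a3 at 46.2 ± 18.6 and Aqp4 at 45 ± 12.1. Replicate 3 placed Gfap first of these 3 genes, since Gfap was at 32.9, 32.2 and 110 FPKM, Slc1a3 at 30.8, 40.9 and 66.9 FPKM and Aqp4 at 37.3, 38.8 and 59.0 FPKM, and Gfap was below Aqp4 in replicates 1 and 2. With CPM divided by the joined exon length of each gene in place of FPKM, the order in AL + PBS was Glul, Aqp4, Vim and Slc1a3.

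**Figure D1:**
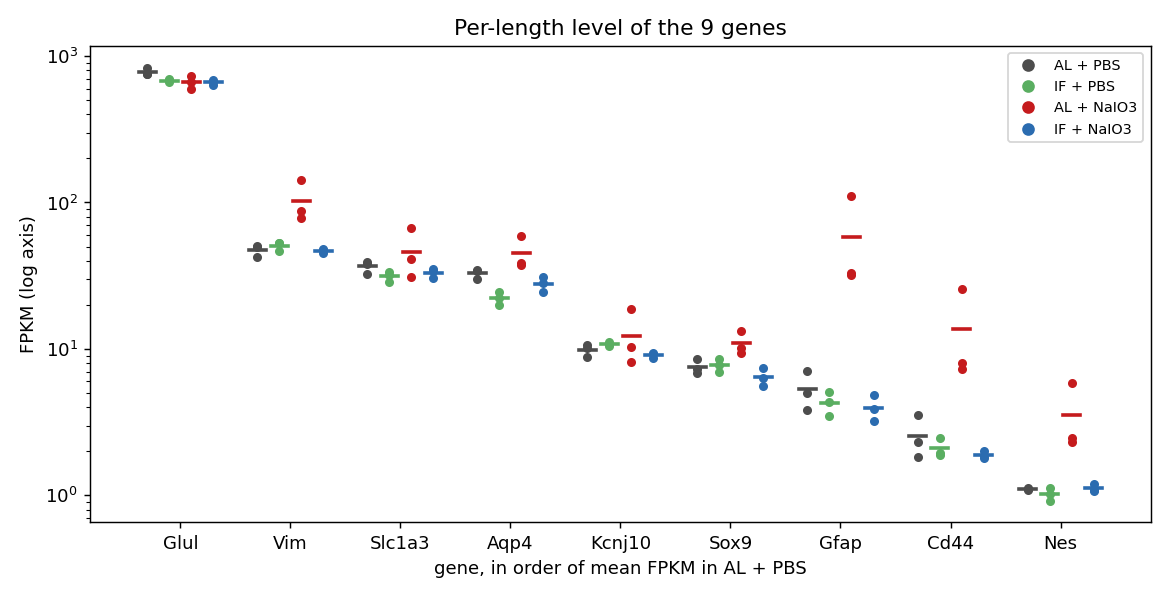
Level per length (FPKM, log axis) of the 9 genes in each of 12 libraries, with genes ordered by their mean in AL + PBS; points are libraries and short lines are means of 3. Glul lies far above the other genes in each group (782 FPKM in AL + PBS), and the AL + NaIO3 points of Gfap, Vim, Cd44, Nes, Aqp4 and Sox9 lie above the other groups.

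Gfap encodes glial fibrillary acidic protein, the filament of astrocytes and of reactive Müller cells. Its level was 12.3, 23.0 and 15.9 CPM in the AL + PBS libraries and 112, 97.1 and 304 CPM in the AL + NaIO3 libraries. In IF + PBS it was 11.2, 14.0 and 16.0 CPM, and in IF + NaIO3 it was 10.7, 13.4 and 15.8 CPM. The AL + NaIO3 libraries thus stood above the other 9 without overlap, and within that group replicate 3 was high while replicates 1 and 2 lay close together. In multiples of the AL + PBS mean, the AL + NaIO3 libraries were at 6.56, 5.69 and 17.8 and the IF + NaIO3 libraries at 0.625, 0.786 and 0.928.

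Gfap was the reactive gene with the largest fitted difference, so the start of its annotated transcript is shown. The RefSeq promoter window (GRCm38.p6, from 250 bases before to 50 bases after the start) held 1 match to TTCNNNGAA, the letters that STAT factors can bind, read on both strands. The match begins at position -2 relative to the start and is in capitals in the stretch chr11:102897191-102897320, minus strand. The stretch of Cd44, the gene whose levels ran closest to Gfap, is chr2:102901656-102901785, minus strand, and is shown for contrast since its window held no match:
Gfap: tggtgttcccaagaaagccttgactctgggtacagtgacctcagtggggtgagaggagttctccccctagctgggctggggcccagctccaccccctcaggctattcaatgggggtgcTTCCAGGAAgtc
Cd44: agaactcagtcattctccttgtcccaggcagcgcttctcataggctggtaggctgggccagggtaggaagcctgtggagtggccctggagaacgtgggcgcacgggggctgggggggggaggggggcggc

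RefSeq windows were matched for 7 of the 9 members. TTCNNNGAA was found in Gfap and in Slc1a3, a homeostatic gene, where it begins at position -96. Of 32851 promoter windows of the same length, 8.3% held it. TGANTCA, the AP-1 letters, was in none of the 7 windows and in 7.81% of all, and ACAAAG, which SOX factors can bind, was in Kcnj10 alone of the 7 and in 18.7% of all. No motif contains another. A match describes letters and is no evidence of binding. The deposited span of Gfap (chromosome 11, 102887336 to 102900912, minus strand, in GRCm38 coordinates) begins further upstream than the RefSeq start, so transcripts with other starts are not covered by this window.

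Vim, Nes and Cd44 were likewise highest in AL + NaIO3. Vim, which encodes the vimentin filament that Müller cells hold at rest, was at 112, 135 and 132 CPM in AL + PBS and at 220, 218 and 325 CPM in AL + NaIO3. Nes, which encodes the progenitor filament nestin, was at 8.16, 8.45 and 8.15 CPM in AL + PBS and at 19.3, 16.1 and 37.5 CPM in AL + NaIO3. Cd44, the receptor for hyaluronan that gathers on the apical processes of Müller cells, was at 12.5, 18.5 and 13.9 CPM in AL + PBS and at 46.9, 47.1 and 108 CPM in AL + NaIO3. For each of these genes all 3 AL + NaIO3 libraries were above the other 9. In IF + NaIO3, Vim was at 133, 134 and 123 CPM, Nes at 8.20, 7.91 and 9.15 CPM, and Cd44 at 11.8, 13.4 and 12.9 CPM, ranges that overlapped those of both PBS groups.

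**Figure D2:**
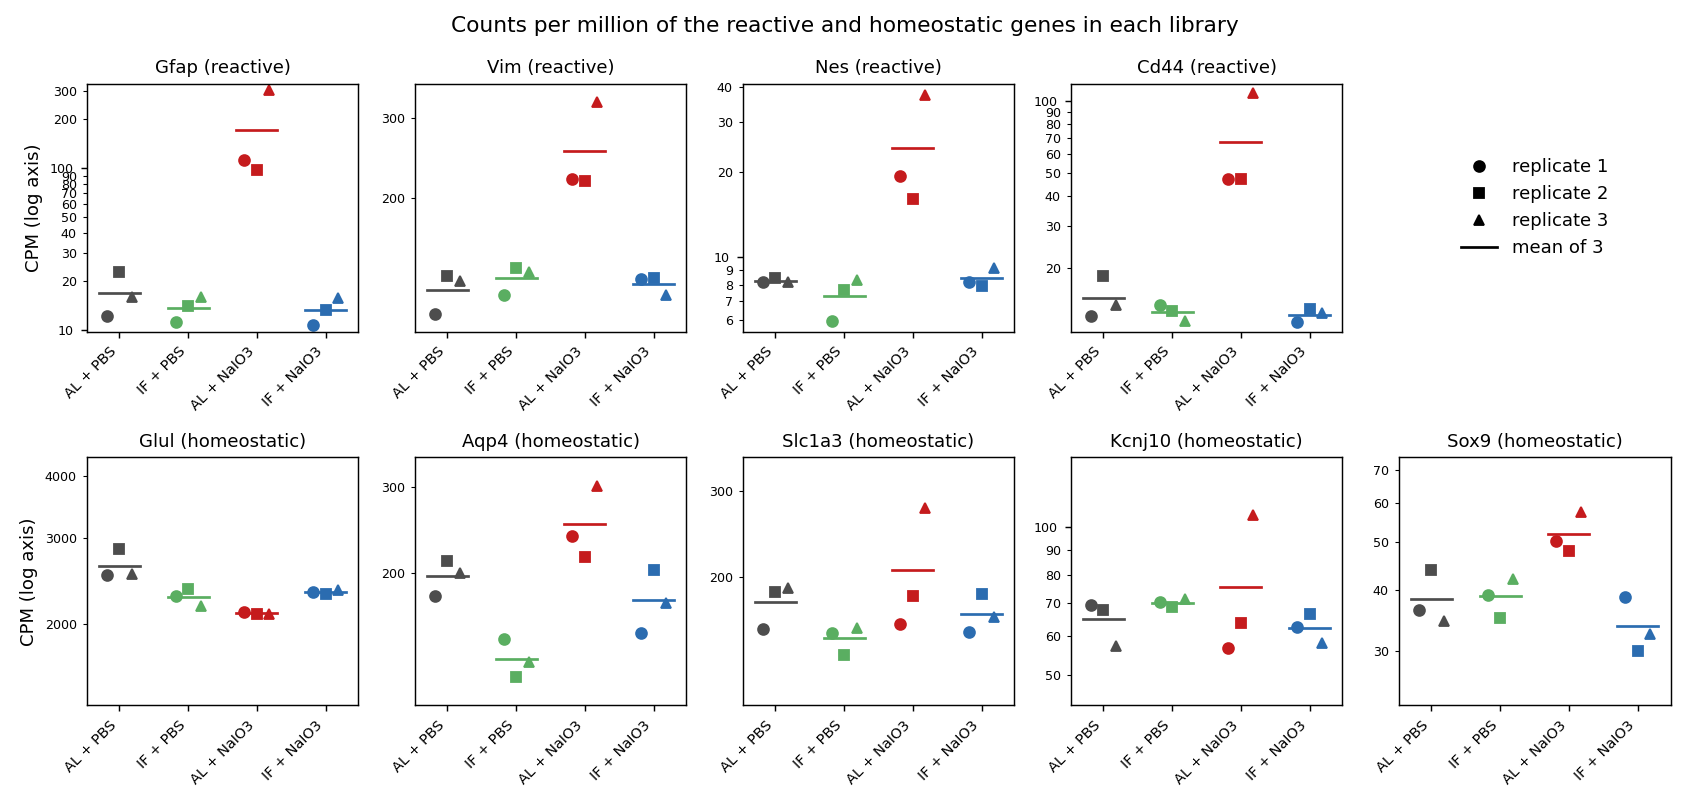
CPM (log axis, a range of its own in each panel) of the 9 genes in each of 12 libraries, with marker shape for the replicate number and a line for the mean of 3. In the reactive panels the 3 AL + NaIO3 libraries (Gfap 97.1 to 304 CPM) sit above the other 9, while in the Glul panel they sit lowest on this scaling (2100 to 2120 CPM).

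In AL + NaIO3 against AL + PBS, the fitted log2 difference was 3.34 (SE 0.48, adjusted p = 0.0873) for Gfap, 2.18 (SE 0.36, adjusted p = 0.115) for Cd44, 1.58 (SE 0.32, adjusted p = 0.193) for Nes and 1.03 (SE 0.19, adjusted p = 0.157) for Vim by edgeR's quasi-likelihood test on 6 libraries. None of the 4 passed an adjusted p of 0.05, in a test that called 12 of 15612 genes (0.0769%). All 4 had an unadjusted p under 0.05 and were higher, against 7.51% of all genes tested, and all 4 were higher without overlap, against 9.67%. Their 95% intervals left out 0, with 2.22 to 4.46 for Gfap and 0.59 to 1.46 for Vim.

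The calls of the reactive genes differed between fits and with AL + NaIO3 replicate 3 left out. With the 12 libraries fitted together, all 4 rose in edgeR's quasi-likelihood test, at an adjusted p of 0.0024 for Gfap, 0.00443 for Cd44, 0.00872 for Vim and 0.0215 for Nes, in a fit that called 1.11% of genes. DESeq2 called all 4 as well and 2.64% of genes. Without replicate 3, the quasi-likelihood test called all 4 and 0.572% of genes, at smaller differences of 2.61 (SE 0.23) for Gfap, 1.65 (SE 0.17) for Cd44, 1.10 (SE 0.16) for Nes and 0.80 (SE 0.11) for Vim.

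IF + NaIO3 against AL + NaIO3 gave the reverse signs. The log2 difference was -3.70 (SE 0.46, adjusted p = 0.0595) for Gfap, -2.42 (SE 0.34, adjusted p = 0.0806) for Cd44, -1.55 (SE 0.32, adjusted p = 0.188) for Nes and -0.99 (SE 0.18, adjusted p = 0.157) for Vim by edgeR's quasi-likelihood test. This test called 6 of 15648 genes (0.0383%) and none of the 4. All 4 were lower at an unadjusted p under 0.05, against 8.22% of genes, and all 4 were lower without overlap, against 10.1%. All 4 fell in the fit of 12 libraries, which called 1.19% of genes, and by DESeq2, which called 3.06%. Without AL + NaIO3 replicate 3, edgeR's quasi-likelihood test called 0.476% of genes, and Gfap (-2.99, SE 0.17), Cd44 (-1.90, SE 0.13) and Vim (-0.77, SE 0.11) fell, while Nes (-1.09, SE 0.19) had an adjusted p of 0.0514. This comparison shares the AL + NaIO3 libraries with the one before it, so the reversal is not a second observation of those libraries.

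**Figure D3:**
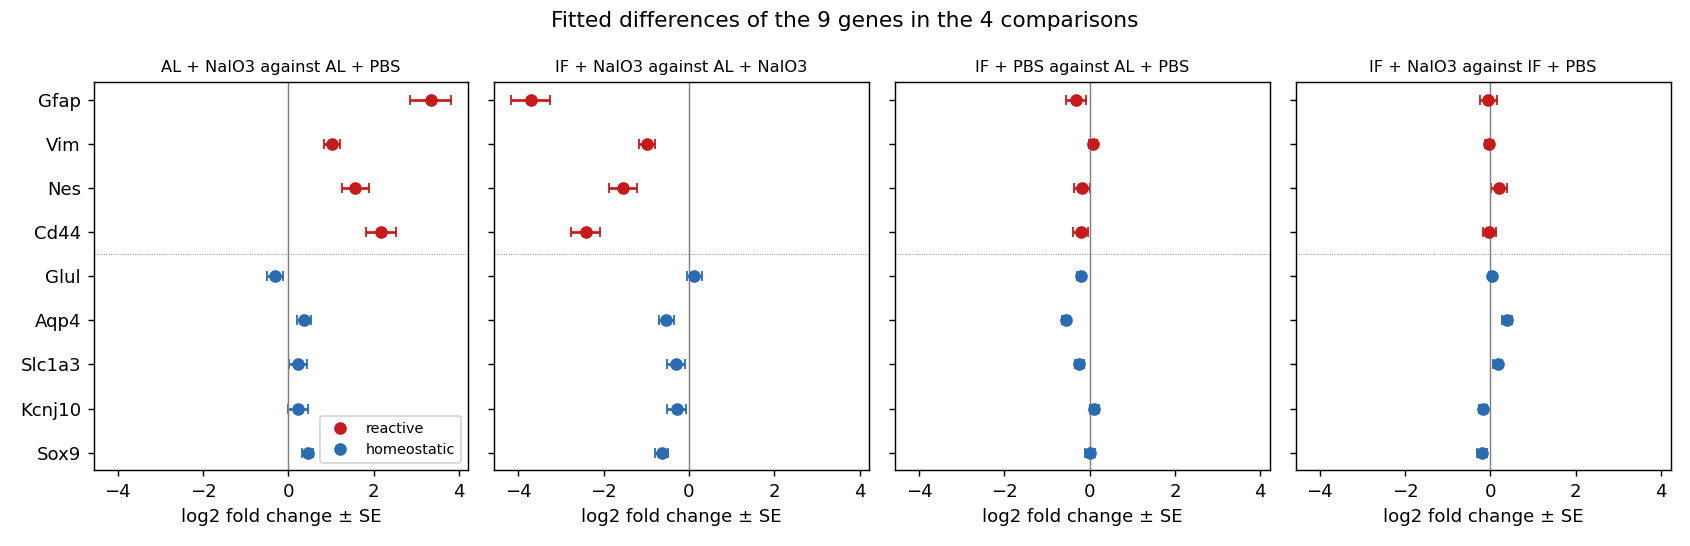
Fitted log2 fold change (points) with its standard error (bars) of the 9 genes in 4 comparisons, reactive genes in red and homeostatic genes in blue. In the comparisons that include AL + NaIO3 the reactive genes lie away from 0 (Gfap 3.34 and -3.70), and in the other pair all 9 lie within 0.56 of 0.

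No comparable difference was measured for the reactive genes where AL + NaIO3 was not involved. In IF + NaIO3 against IF + PBS the log2 difference of Gfap was -0.04 with a 95% interval of -0.47 to 0.38, that of Vim -0.04 (-0.25 to 0.18), that of Cd44 -0.03 (-0.35 to 0.30) and that of Nes 0.21 (-0.22 to 0.63). In IF + PBS against AL + PBS it was -0.32 for Gfap (-0.82 to 0.18), -0.21 for Cd44 (-0.59 to 0.16), -0.18 for Nes (-0.57 to 0.22) and 0.08 for Vim (-0.14 to 0.31). These intervals all held 0, and each leaves room for a difference, up to -0.82 for Gfap in IF + PBS against AL + PBS. No gene of the table passed edgeR's quasi-likelihood test in IF + NaIO3 against IF + PBS or in IF + PBS against AL + PBS (0% in each), although 2326 and 2623 genes had an unadjusted p under 0.05 and DESeq2 called 72 and 192.

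Glul, whose enzyme makes glutamine from glutamate and ammonia, was at 2520, 2840 and 2530 CPM in AL + PBS and at 2120, 2100 and 2100 CPM in AL + NaIO3. In IF + PBS it was at 2280, 2360 and 2180 CPM, and in IF + NaIO3 at 2320, 2300 and 2350 CPM. The AL + NaIO3 libraries were the 3 lowest of the 12 and the AL + PBS libraries the 3 highest. The low rank of AL + NaIO3 depended on the scaling, since with library totals alone its libraries were at 2030, 2240 and 2390 CPM and those of IF + NaIO3 at 2250, 2150 and 2300 CPM, which overlap, while all AL + PBS libraries, at 2490 CPM or more, stayed above. The log2 difference in AL + NaIO3 against AL + PBS was -0.31 (SE 0.18, adjusted p = 0.597 by edgeR's quasi-likelihood test), and 8.63% of genes were lower without overlap in that comparison. In multiples of the AL + PBS mean, Glul was at 0.808, 0.797 and 0.800 in AL + NaIO3, so replicate 3 did not stand apart for this gene on the scaled counts, although it was the highest of the 3 in FPKM and with library totals alone. Glul overlaps the gene Teddm2 in the deposited coordinates, and whether strand was used in counting is not given in the sources used here.

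Aqp4 encodes the water channel of Müller cell endfeet. It was at 180, 212 and 200 CPM in AL + PBS and at 147, 123 and 132 CPM in IF + PBS, so the PBS groups did not overlap. In AL + NaIO3 it was at 238, 216 and 301 CPM, and in IF + NaIO3 at 151, 203 and 174 CPM. In IF + PBS against AL + PBS the log2 difference was -0.56 (SE 0.10, 95% interval -0.78 to -0.33), and the adjusted p was 0.154 in edgeR's quasi-likelihood test, where Aqp4 ranked 23 of 15361 genes by p. DESeq2 gave an adjusted p of 0.000195 at the same difference, which stays short of the 1.5-fold threshold and so is no call, while it called 1.33% of genes. Without IF + PBS replicate 1, edgeR's quasi-likelihood test called Aqp4 (-0.63, adjusted p = 0.00822) as 1 of 472 genes.

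Aqp4 was higher with NaIO3 under either diet. The log2 difference was 0.37 (SE 0.16, adjusted p = 0.493) in AL + NaIO3 against AL + PBS and 0.40 (SE 0.12, adjusted p = 0.22) in IF + NaIO3 against IF + PBS by edgeR's quasi-likelihood test, with no overlap of libraries in either. Neither passed the test. Without AL + NaIO3 replicate 3 the former was 0.20 (SE 0.11), and with library totals alone the libraries of the latter overlapped. Its interaction was 0.04 (95% interval -0.40 to 0.49).

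Slc1a3 and Kcnj10 encode the glutamate transporter GLAST and the potassium channel Kir4.1. Slc1a3 was at 157, 187 and 190 CPM in AL + PBS and at 161, 183 and 277 CPM in AL + NaIO3. Kcnj10 was at 69.4, 67.9 and 57.4 CPM in AL + PBS and at 56.7, 63.7 and 106 CPM in AL + NaIO3. In both genes only replicate 3 of AL + NaIO3 lay outside the AL + PBS range on the high side. The log2 difference in AL + NaIO3 against AL + PBS was 0.23 (SE 0.21, adjusted p = 0.749) for Slc1a3 and 0.23 (SE 0.23, adjusted p = 0.779) for Kcnj10 by edgeR's quasi-likelihood test, and without replicate 3 it was -0.05 and -0.11. In IF + NaIO3 against AL + NaIO3 it was -0.31 for Slc1a3 and -0.29 for Kcnj10, and without replicate 3 it was -0.04 and 0.04.

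Slc1a3 was at 154, 139 and 158 CPM in IF + PBS, and its log2 difference there was -0.24 (SE 0.10, adjusted p = 0.266 by edgeR's quasi-likelihood test) against AL + PBS. In IF + NaIO3 it was at 155, 185 and 166 CPM. Kcnj10 was at 70.5, 68.8 and 71.3 CPM in IF + PBS and at 62.6, 66.6 and 58.1 CPM in IF + NaIO3. That difference of Kcnj10 was -0.16 (SE 0.09, adjusted p = 0.413 by edgeR's quasi-likelihood test), with the IF + NaIO3 libraries below those of IF + PBS, as for 10.9% of genes.

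Sox9 encodes a transcription factor of Müller cells and of retinal progenitors, and of the homeostatic genes it lay nearest to the reactive pattern. It was at 36.3, 43.8 and 34.6 CPM in AL + PBS, at 50.2, 48.0 and 57.6 CPM in AL + NaIO3, at 39.1, 35.1 and 42.1 CPM in IF + PBS and at 38.7, 30.0 and 32.5 CPM in IF + NaIO3. The AL + NaIO3 libraries were the 3 highest of the 12. The log2 difference was 0.45 (SE 0.14, adjusted p = 0.327) in AL + NaIO3 against AL + PBS (0.36 without replicate 3) and -0.64 (SE 0.15, adjusted p = 0.213) in IF + NaIO3 against AL + NaIO3 by edgeR's quasi-likelihood test. In the latter comparison Sox9 fell in the fit of 12 libraries (adjusted p = 0.0431 by edgeR's quasi-likelihood test) and by DESeq2 (adjusted p = 0.0174). Without AL + NaIO3 replicate 3 its adjusted p by edgeR's quasi-likelihood test was 0.105 with the other libraries fitted together and 0.205 in the pairwise fit, so it was not called.

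Counted over the 5 homeostatic genes, 0 passed edgeR's quasi-likelihood test in any pairwise fit with all 6 libraries. In AL + NaIO3 against AL + PBS, Sox9 alone was higher at an unadjusted p under 0.05, against 7.51% of all genes, and none of the 5 was lower, against 2.74%. Sox9 and Aqp4 were higher without overlap there, against 9.67%, and Glul was lower without overlap, against 8.63%. With fasting among the NaIO3 mice, Sox9 and Aqp4 were lower at that p, against 8.22% of all genes, and none of the 5 was higher, against 3.46%. The same 2 genes were lower without overlap, against 10.1%, and Glul alone was higher without overlap, against 8.86%, though its libraries overlapped with library totals alone. In IF + PBS against AL + PBS, Glul, Aqp4 and Slc1a3 were lower at an unadjusted p under 0.05, against 8.85%, and Glul and Aqp4 were lower without overlap, against 11.2%. With NaIO3 among the fasting mice, Aqp4 alone was higher at that p, against 8.47%, and alone was higher without overlap, against 10.1%, while Kcnj10 was lower without overlap, against 10.9%.

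The difference between the diets in the response to injection was tested as an interaction over the 12 libraries. It was -3.37 (SE 0.54, adjusted p = 0.0652) for Gfap, -2.20 (SE 0.39, adjusted p = 0.0825) for Cd44, -1.36 (SE 0.38, adjusted p = 0.244) for Nes and -1.05 (SE 0.21, adjusted p = 0.113) for Vim on the log2 scale by edgeR's quasi-likelihood test. This test called 5 of 15970 genes (0.0313%) and no member. The 4 reactive genes and Sox9 (-0.64, SE 0.19) had an unadjusted p under 0.05 with a negative sign, against 6.88% of genes. DESeq2 called the 4 reactive genes and 1.42% of genes. Without AL + NaIO3 replicate 3, edgeR's quasi-likelihood test called 32 genes of 16105, and the interactions of the reactive genes were smaller. Among the genes called were Gfap (-2.66, adjusted p = 0.00223), Cd44 (-1.68, adjusted p = 0.00471) and Vim (-0.84, adjusted p = 0.0332). In that fit Nes was at -0.90 (SE 0.24, adjusted p = 0.245), Sox9 at -0.56, and Kcnj10 at -0.06 in place of -0.38.

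The reactive and the homeostatic genes were set side by side in each library as the mean over the genes of log2 CPM relative to the AL + PBS mean. The reactive level was 1.62, 1.5 and 2.66 in AL + NaIO3, while the homeostatic level of the same libraries was 0.00775, 0.0345 and 0.449. In IF + NaIO3 the reactive level was -0.221, -0.101 and -0.0345 and the homeostatic level -0.155, -0.0755 and -0.162. In IF + PBS the reactive level was -0.289, -0.0905 and -0.053 and the homeostatic level -0.133, -0.242 and -0.143. The AL + PBS libraries ran from -0.213 to 0.236 on the reactive axis and from -0.0653 to 0.115 on the homeostatic axis, so all 3 AL + NaIO3 libraries were above the former range and replicate 3 above the latter. All 6 fasting libraries lay below the AL + PBS range on the homeostatic axis, but with Glul left out IF + NaIO3 replicate 2, at -0.0475, lay within it. On the reactive axis IF + PBS replicate 1 and IF + NaIO3 replicate 1 lay below, and with Gfap left out the latter, at -0.0846, lay within the range. Replicates 1 and 2 lay within the homeostatic range, where Glul was low and Sox9 and Aqp4 were high. With Glul left out, the homeostatic level was 0.0861, 0.124 and 0.641, and replicate 2 was just above the AL + PBS range. With library totals alone it was 0.142 in replicate 2 with Glul included, above an AL + PBS maximum of 0.106. With Gfap left out, the reactive level of AL + NaIO3 was 1.23, 1.15 and 2.14, so the other 3 genes were high as well.

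**Figure D4:**
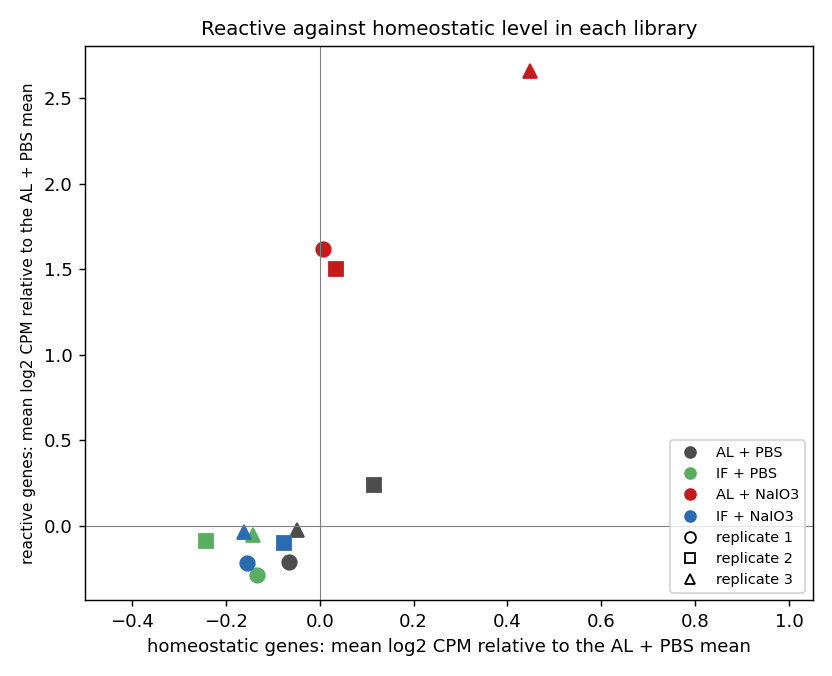
Mean log2 CPM relative to the AL + PBS mean of the 4 reactive genes (vertical axis) and of the 5 homeostatic genes (horizontal axis) in each of 12 libraries; colour is the group and shape the replicate number. AL + NaIO3 replicates 1 and 2 (1.62 and 1.5) lie above the cluster of the other groups, and replicate 3 (2.66) lies above and to the right.

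A ratio within a library needs no scaling between libraries. For each 1000 counts of Glul there were 4.88, 8.11 and 6.28 counts of Gfap in AL + PBS, 52.7, 46.3 and 145 in AL + NaIO3, and 4.6, 5.82 and 6.74 in IF + NaIO3. Against Slc1a3, which was itself high in replicate 3, the gap within AL + NaIO3 narrowed. For each 1000 counts of Slc1a3 there were 1370, 1190 and 1170 counts of Vim in AL + NaIO3 against 710, 724 and 695 in AL + PBS, so that replicate 3 was no longer the highest. Gfap was at 695, 531 and 1100 on this scale and Cd44 at 291, 258 and 389. Of the FPKM of Gfap, Vim and Nes together, Gfap made up 8.04%, 12.1% and 8.97% in AL + PBS, 29.0%, 26.3% and 42.6% in AL + NaIO3, and 6.12%, 7.46% and 9.39% in IF + NaIO3.

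Levels of some other cell types were higher in AL + NaIO3 as well. In its replicates 1, 2 and 3, lymphocyte genes summed to 3.95, 4.02 and 11.5 CPM against 0.944 to 2.04 CPM in AL + PBS. Of 8 such genes, 5 were tested. Endothelial genes summed to 232, 234 and 475 CPM against 195 to 204 CPM. Kdr alone was at 182, 192 and 362 CPM, while Emcn was at 3.59, 2.31 and 15.7 CPM against 3.78 to 4.2 CPM. Neutrophil genes summed to 0.898, 0.782 and 0.372 CPM against 0.637 to 0.854 CPM. Optic nerve myelin and Schwann cell genes summed to 63.8, 73.9 and 122 CPM against 73.7 to 81.9 CPM. AL + NaIO3 replicate 2 stood apart in 5 corneal epithelium genes, at 457 CPM against at most 92.1 CPM elsewhere. The 12 macrophage and microglia genes summed to 58.7 to 62.1 CPM in AL + PBS, 126 to 346 CPM in AL + NaIO3 and 52.0 to 68.4 CPM in IF + NaIO3, and all 12 had counts. Such cells also hold Cd44 and Vim, and their part in the result was not tested. The 7 genes of retinal astrocytes, which make Gfap at rest, summed to 90.9 to 97.1 CPM in AL + PBS and to 103, 108 and 333 CPM in AL + NaIO3, where 194 CPM of replicate 3 came from Gja1. All 7 of these genes had a fitted difference above 0 in AL + NaIO3 against AL + PBS, with a median of 0.69, and none was called. Without replicate 3, 6 of the 7 were above 0 and the median was 0.12. Aldh1l1, a folate enzyme of astrocytes, was at 14.9 to 16.6 CPM in AL + PBS and at 17.2, 24.7 and 41.9 CPM in AL + NaIO3, and Agt, which encodes angiotensinogen, at 9.0 to 9.92 CPM and at 11.8, 17.5 and 18.5 CPM. Slc39a12, a zinc transporter, was at 4.64 to 7.16 CPM in AL + PBS and at 3.62, 3.66 and 16.4 CPM in AL + NaIO3, and S100b, a calcium-binding protein, at 26.1 to 29.0 CPM and at 35.6, 24.6 and 50.2 CPM, so the 7 genes did not share 1 pattern. Pax2, a transcription factor of astrocytes, stayed near or below 1 CPM in both groups, at 0.493 to 0.992 and 0.711 to 0.962 CPM. The part of astrocytes in the Gfap values was not tested. The rod genes of AL + NaIO3 replicate 1 summed to 66900 CPM, no lower than in any AL + PBS library, and its Gfap was 6.56 times the AL + PBS mean. In replicates 2 and 3 they summed to 39000 and 19900 CPM, and Gfap was 5.69 and 17.8 times that mean. The genes of RPE, the cells that NaIO3 injures first, summed to 1560 to 1750 CPM in AL + PBS and 648 to 820 CPM in AL + NaIO3. In IF + NaIO3 they summed to 754 to 1640 CPM, and Gfap was between 10.7 and 15.8 CPM. How the rod and RPE levels relate to Gfap was not tested. The PBS groups also differed in other tissues. In IF + PBS, skeletal muscle genes summed to 20.1 to 107 CPM against 140 to 306 CPM in AL + PBS. Stroma genes summed to 82.1 to 140 CPM against 164 to 242 CPM, and corneal genes to 5.94 to 12.6 CPM against 21.7 to 46.4 CPM. RPE genes were higher in IF + PBS, at 1840 to 2350 CPM. Lens genes summed to 286 CPM in AL + PBS replicate 2. The part of these tissues in the Glul, Aqp4 and Slc1a3 differences was not tested.

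Over the 12 libraries, the gene whose log2 CPM ran closest to Gfap, of 15969 others, was Cd44, with a Pearson r of 0.991. Serpina3n (0.986), a serine protease inhibitor of reactive glia, Steap4 (0.982), a metalloreductase, Klrb1b (0.982), a lectin-like receptor of natural killer cells, and Mcl1 (0.979), an inhibitor of apoptosis, followed. Vim was at rank 7 and Nes at rank 10, whereas Sox9 was at rank 423 and Glul, with r = -0.549, at rank 13545. These values rest on the AL + NaIO3 libraries, which lie apart. Over the 9 libraries outside that group, r with Gfap was 0.731 for Cd44, 0.717 for Serpina3n, 0.656 for Steap4, 0.175 for Klrb1b, 0.645 for Mcl1, 0.357 for Vim and 0.495 for Nes. For Sox9 it was 0.294 there, and for Glul the sign turned, with r = 0.629. The 5 genes closest to Glul were Slc16a3 (0.899), a lactate transporter, Pfkl (0.889), a phosphofructokinase of glycolysis, Ak4 (0.857), a mitochondrial adenylate kinase, Cryaa (0.855), a crystallin that was high in AL + PBS replicate 2, and Tspyl4 (0.854).

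Other genes of gliosis were followed in a list of 26 signals, receptors, transcription factors and secreted proteins. The list was chosen with earlier results of these data known. Its counts beside the shares of all genes therefore describe the list and are no test of enrichment. Lcn2, Cebpd and Edn2 passed edgeR's quasi-likelihood test in both comparisons with AL + NaIO3 and in the interaction. Lcn2, which encodes the iron-siderophore carrier lipocalin-2, was at 4.26, 3.75 and 4.14 CPM in AL + PBS, at 53.2, 37.1 and 88.8 CPM in AL + NaIO3 and at 4.53, 5.10 and 3.64 CPM in IF + NaIO3. By edgeR's quasi-likelihood test it was higher by 3.90 on the log2 scale in AL + NaIO3 than in AL + PBS (adjusted p = 0.0186). It was lower by 3.77 in IF + NaIO3 than in AL + NaIO3 (adjusted p = 0.0143). Edn2, an endothelin that injured photoreceptors release, was at 3.01, 5.03 and 4.2 CPM in AL + PBS and at 41.5, 80.2 and 128 CPM in AL + NaIO3. Cebpd, a transcription factor of the acute phase, was at 9.44, 11.3 and 12.2 CPM in AL + PBS and at 62.4, 66.9 and 103 CPM in AL + NaIO3. In each of the 3 genes, all AL + NaIO3 libraries were above all others.

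In that list the median log2 difference was 2.11 in AL + NaIO3 against AL + PBS, where the median of all genes was 0.0137, and -2.37 in IF + NaIO3 against AL + NaIO3. These medians were 1.21 and -1.5 without AL + NaIO3 replicate 3. Ccl2 and Cxcl10, both chemokines, passed the filter on low counts with AL + NaIO3 included but not between the PBS groups, and are left out of the counts that follow. Of the other 24 genes, with a median of 1.93 in AL + NaIO3 against AL + PBS, 19 were higher at an unadjusted p under 0.05, against 7.51% of all genes, and none was lower. DESeq2 called 14 of the 24 as higher, against calls in 2.64% of all genes. The quasi-likelihood test without AL + NaIO3 replicate 3 called 10 of the 24, all higher, against 0.572% of all genes, and Lcn2, Cebpd and Edn2 were among them. Ccl2, a chemokine for monocytes, had the largest fitted difference, but it had 0 counts in each AL + PBS library and 66, 21 and 107 counts in AL + NaIO3. Set against a floor of 3 counts per library, it was at least 21.7-fold higher, and the list's median with this bound was 2.11 again. Among the fasting mice the median with NaIO3 was 0.04 and no gene of the list was called.

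The other lists, chosen in the same way, had medians nearer to 0. Of 23 further Müller cell genes, 0 were called by edgeR's quasi-likelihood test, 10 were higher, against 7.51% of all genes, and 1 was lower, against 2.74%, at an unadjusted p under 0.05 in AL + NaIO3 against AL + PBS. The median was 0.30, and 0.15 without AL + NaIO3 replicate 3. Crym, a thyroid hormone-binding protein and the leading gene of that list, was at 40.2, 49.4 and 48.4 CPM in AL + PBS, 130, 130 and 233 CPM in AL + NaIO3 and 57.5, 48.1 and 39.0 CPM in IF + NaIO3 (log2 difference 1.85, SE 0.25, adjusted p = 0.0672 by edgeR's quasi-likelihood test). Crym, Apoe, Clu, Cd9, Dbi and Prdx6 of this list rose in the fit of 12 libraries, which called 1.11% of all genes. Without AL + NaIO3 replicate 3, the pairwise test called Crym, Apoe and Cd9, at log2 differences of 1.5, 0.99 and 0.93, and not Clu, Dbi or Prdx6, and it called 0.572% of all genes. Genes of this list also lay on the other side of 0, with Slco1c1, a thyroid hormone transporter, at -0.73 (adjusted p = 0.287 by edgeR's quasi-likelihood test) and lower by DESeq2.

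Of 20 partners in glutamate, potassium and water handling, 0 had an unadjusted p under 0.05 in AL + NaIO3 against AL + PBS by edgeR's quasi-likelihood test, where 7.51% of all genes were higher and 2.74% lower. DESeq2 called 0, against 2.64% of all genes, and the median was -0.03, or -0.13 with AL + NaIO3 replicate 3 left out. Kcnj16 and Slc38a5 of this list passed the filter on low counts here but not between the PBS groups. Of the other 18 genes, likewise 0 had an unadjusted p under 0.05. Without AL + NaIO3 replicate 3, edgeR's quasi-likelihood test called Kcnj13, a potassium channel of RPE cells, as lower. Its levels were 19.6, 17.3 and 20.7 CPM in AL + PBS and 8.82, 9.21 and 27.7 CPM in AL + NaIO3. Their leading gene was Aqp3, a water and glycerol channel, at 1.89, 2.46 and 2.82 CPM in AL + PBS and 2.92, 18.6 and 1.36 CPM in AL + NaIO3, with 1 library far above the others. Of 14 other intermediate filament genes 0 had an unadjusted p under 0.05 there and 0 were called by DESeq2, against the same shares of all genes. The median was 0.00428, or 0.12 with AL + NaIO3 replicate 3 left out. Bfsp1, a lens filament and the leading gene, was at 0.416, 3.64 and 0.591 CPM in AL + PBS and at 0.545, 0.640 and 0.611 CPM in AL + NaIO3.

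Of 12 hyaluronan and CD44 partners 11 were tested, and Has2, a hyaluronan synthase, was tested only where AL + NaIO3 was included. Of the other 10, 2 were higher at an unadjusted p under 0.05 in AL + NaIO3 against AL + PBS by edgeR's quasi-likelihood test, where 7.51% of all genes were, 0 were called, and the median was 0.23. Over the 11 the median was 0.28, and 0.10 without AL + NaIO3 replicate 3. DESeq2 called Msn, which encodes moesin, a link between CD44 and actin. Spp1, which encodes osteopontin, a ligand of CD44, led the list with 18.1, 22.3 and 15.9 CPM in AL + PBS, 46.5, 29.7 and 169 CPM in AL + NaIO3 and 22.1, 21.8 and 16.8 CPM in IF + NaIO3. Its log2 difference with NaIO3 was 2.14 (SE 0.60, adjusted p = 0.296 by edgeR's quasi-likelihood test), and its AL + NaIO3 libraries were above all others. Without replicate 3 the difference was 1.02.

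**Figure D5:**
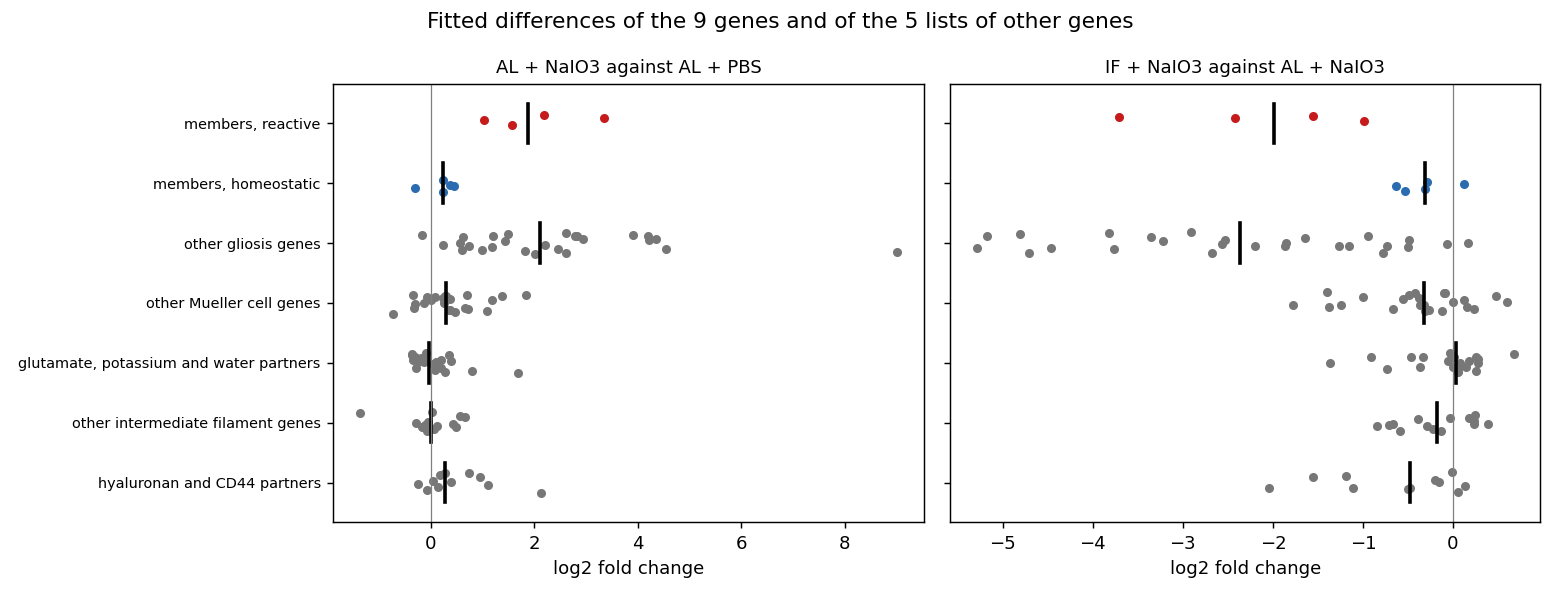
Fitted log2 fold change of each gene (points) of the 9 members and of 5 lists of other genes in AL + NaIO3 against AL + PBS (left) and IF + NaIO3 against AL + NaIO3 (right); black lines are medians. The reactive genes (medians 1.88 and -1.99) and the other gliosis genes (medians 2.11 and -2.37) lie on opposite sides of 0 in the 2 panels, and the filament, transport and water genes lie around 0; the point at 9.01 is Ccl2, which had 0 counts in AL + PBS.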

How the data were processed

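Poly-A selected RNA was sequenced from a stranded kit, in 150-bp reads that the methods call single-end and the labels paired. The submitters' processing notes name HISAT2, StringTie and GRCm39, but the deposited gene coordinates are those of GRCm38. The authors deposited whole-number counts per gene without normalization, and FPKM values that divide by length and depth. The length behind an FPKM differed between libraries, so FPKM served for levels and shares between genes, and no test was run on it. A deposited table of the authors' own fold changes and p-values was not used.

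Group differences were fitted with edgeR 4.0.16 in R 4.3.3 (TMM scaling, filterByExpr, quasi-likelihood test on the 6 libraries compared, Benjamini-Hochberg adjustment over all genes tested). A call needed a fold of 1.5 or more beside an adjusted p below 0.05, or that p alone for the interaction on 12 libraries. DESeq2 1.42.0, other scalings and filters, the 12-library fit, a replicate block and leaving out each library were alternatives. The test was run on simulated counts first. Log2 CPM for likeness used a pseudocount of 0.5. Totals were 26364665 to 43046950 counts, and the lowest count of a member was 186 (Nes), so counting error weighs most on Nes. The 12-library fit without AL + NaIO3 replicate 3 and the division by exon length were chosen after seeing the data.

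The members, the 5 lists of other genes and the 16 marker lists were chosen with earlier results of these data known. Beyond the members, the text names from each list of other genes the called genes and the gene with the largest difference in AL + NaIO3 against AL + PBS, and the 5 genes closest to Gfap and to Glul. Apoe, Clu, Cd9, Dbi, Prdx6, Slco1c1, Kcnj13, Kcnj16, Slc38a5, Cxcl10, Has2, Msn, Kdr, Emcn, Gja1, Aldh1l1, Agt, Slc39a12, S100b and Pax2 were named after their values were seen. No 2 libraries of a group were duplicates (chi-square per gene of at least 13.2).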

Additional observations from a re-analysis of the deposited data

Results flagged for a closer look

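Glul was set apart because its difference between the diets ran in opposite directions under PBS and under NaIO3, in every library. With PBS, the IF libraries (2180 to 2360 CPM) were below the AL libraries (2520 to 2840 CPM), and with NaIO3 the IF libraries (2300 to 2350 CPM) were above the AL libraries (2100 to 2120 CPM). The separation under NaIO3 rested on the scaling factors: with library totals alone AL + NaIO3 was at 2030 to 2390 CPM and IF + NaIO3 at 2150 to 2300 CPM, which overlap, and the fitted difference between them was 0.01 in place of 0.13. The interaction was 0.35 on the log2 scale (SE 0.17, 95% interval -0.02 to 0.73), with an adjusted p of 0.431 in edgeR's quasi-likelihood test, so this difference between the injections did not pass the test. With DESeq2 the adjusted p was 0.0945, and over 18 alternatives the interaction was between 0.21 and 0.39 and the adjusted p between 0.0945 and 0.677. The sign was the same in each. Groups of 3 libraries were not tested for single outlying values.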

How the results depend on the processing

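Over the alternatives run, the 4 reactive genes kept their sign in both comparisons with AL + NaIO3 and in the interaction, and whether they were called varied. In AL + NaIO3 against AL + PBS the number of genes called was 12, and it was 411 with DESeq2 (4 members), 4 with library totals alone, 19 without a filter on low counts, 177 with 12 libraries fitted together (4 members) and 127 in that fit without AL + NaIO3 replicate 3 (4 members). Leaving out 1 library gave between 0 genes (without any one AL + PBS library) and 90 genes (without AL + NaIO3 replicate 3), and between 0 and 4 members. In IF + NaIO3 against AL + NaIO3 it was 6, and it was 478 with DESeq2 (5 members), 16 without a filter (2 members), 190 with 12 libraries (5 members), 122 in that fit without replicate 3 (4 members), and between 0 and 75 genes and 0 and 3 members with 1 library left out. In IF + PBS against AL + PBS it was 0, but 192 with DESeq2 and between 1 and 472 (0 to 1 member) with 1 library left out, the highest without IF + PBS replicate 1. In IF + NaIO3 against IF + PBS it was 0, but 72 with DESeq2, 2 without a filter and between 0 and 197 with 1 library left out, again the highest without IF + PBS replicate 1. The interaction gave 5 genes, 217 with DESeq2 (4 members), 13 without a filter (1 member), and between 3 and 366 genes and 0 and 3 members with 1 library left out, the most genes without AL + NaIO3 replicate 1. Same-numbered libraries did not deviate together (correlations of -0.156 to 0.173), so no pairing by number was seen, although this check cannot exclude a batch that they share. With a replicate block the calls were 28 (1 member), 28 (2 members), 5 and, for the interaction, 8 (1 member). The cause of these shifts was not tested.

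Signs turned only in members that were not called in the comparison concerned. In AL + NaIO3 against AL + PBS, Slc1a3 was between -0.048 and 0.38 and Kcnj10 between -0.11 and 0.39 with 1 library left out, and they were at -0.04 and -0.10 in the fit of 12 libraries without replicate 3. In IF + NaIO3 against AL + NaIO3, Kcnj10 was between -0.45 and 0.042, and 0.046 in that fit. In IF + PBS against AL + PBS, Sox9 was between -0.048 and 0.13. In IF + NaIO3 against IF + PBS, Gfap was between -0.19 and 0.088, Vim between -0.094 and 0.00072, and Cd44 between -0.081 and 0.026, and Glul was -0.023 with library totals alone. The interaction of Aqp4 was between -0.08 and 0.19, -0.012 with upper quartile scaling and -0.12 with library totals alone, and that of Slc1a3 between -0.22 and 0.21. With 1 library left out, the mean level of IF + NaIO3 relative to AL + PBS was between -0.225 and -0.000601 for the reactive genes and between -0.163 and -0.0734 for the homeostatic genes. Library totals alone moved the median of all genes to -0.13 in IF + NaIO3 against AL + NaIO3. Per joined exon length, Vim ranked 3, Aqp4 2 and Slc1a3 4 in AL + PBS. Dividing CPM by a length from the deposited files was not run, since those give only genomic spans.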
